A study of Mus musculus with 7 samples.

Results

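The 34 genes described here mark endothelial cells and the endocardium, the endothelial layer that lines the heart. They were given as a fixed list of symbols, chosen with earlier results of these data known. They were found by symbol among the 23284 gene rows of the deposited count files, with Gpr116 and Eltd1 under these older names (now Adgrf5 and Adgrl4). They fall into 20 junction and surface genes, 8 transcription factor genes and 6 endocardial genes. All 34 had a row, and all 34 passed the filter on low counts that left 14290 genes to be tested.

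RNA came from atrioventricular canals, the segment of the embryonic heart tube where the valves begin to form, cut by hand from outbred NMRI mouse embryos. The mutant group was homozygous for a Hand2 allele, Hand2 d/d (null-mutant), made by Cre deletion of all coding regions of Hand2 in the germline, so that every cell lacks the gene. The control group was wild type. Both were taken at 18 to 23 somites, which the labels place at embryonic day 9.0 or slightly later and the sample titles at day 9.5. Each library was a pool of 4 canals, and 4 null and 3 wild-type pools were sequenced (null replicates 1 to 4, wild-type replicates 2 to 4). Each replicate is thus a separate pool, and a pool averages its embryos.

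Endothelial cells are held together by VE-cadherin and claudins at their junctions, and their identity is kept by ETS and SOXF transcription factors, which act on enhancers of many endothelial genes. The endocardium shares this programme and adds factors such as NFATC1. In the atrioventricular canal some endocardial cells leave the layer and become the mesenchyme of the valve cushions, a change that involves loosening of junctions. HAND2 is a basic helix-loop-helix factor, and the series title places it in gene networks of valve development.

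The libraries held 27905601 to 44860753 reads in genes, so that 3 reads corresponded to 0.0669 to 0.108 CPM (reads of a gene per 1000000 reads in genes of the same library). Hand2 was counted 7 to 26 times in the null libraries and 1194 to 2123 times in the wild-type libraries, which matched the labels. Heart muscle markers were abundant in all of them, with Myl7 at 10436 to 14918 CPM and Actc1 at 8590 to 11846 CPM. Over all tested genes, 4.11% were higher in null and 2.13% lower at an adjusted p under 0.05 (edgeR quasi-likelihood test, Benjamini-Hochberg adjustment over all 14290 genes). In CPM, the null libraries all lay above the wild-type libraries for 11.6% of tested genes and all below them for 10.3%.

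Promoter sequence is shown for 4 of the 16 members with an entry in the RefSeq promoter table (build GRCm38.p6). Clec14a, Eltd1 and Cldn5 are shown because they are among the genes with the largest differences, and Cgnl1 because it is an abundant member whose CPM hardly differed. Each line is the 250 bases before the annotated start, 5′ to 3′ on the gene's strand, and capitals mark GGAA, the core of ETS binding sites, on either strand (TTCC is the same motif read on the other strand). The windows are chr12:58269259-58269508 on the minus strand for Clec14a, chr3:151437632-151437881 on the plus strand for Eltd1, chr16:18776597-18776846 on the plus strand for Cldn5 and chr9:71771603-71771852 on the minus strand for Cgnl1. The counts themselves were made on mm9 and carry no coordinates.
Clec14a: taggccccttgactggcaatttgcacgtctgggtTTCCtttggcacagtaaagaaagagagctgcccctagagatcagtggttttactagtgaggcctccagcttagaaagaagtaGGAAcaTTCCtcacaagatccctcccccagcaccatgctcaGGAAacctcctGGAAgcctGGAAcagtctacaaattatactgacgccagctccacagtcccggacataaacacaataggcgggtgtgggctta
Eltd1: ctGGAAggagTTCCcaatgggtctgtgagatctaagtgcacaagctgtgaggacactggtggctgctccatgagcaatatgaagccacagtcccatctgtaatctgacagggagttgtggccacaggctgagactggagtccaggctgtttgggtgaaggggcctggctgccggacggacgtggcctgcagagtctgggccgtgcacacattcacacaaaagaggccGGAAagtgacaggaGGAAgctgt
Cldn5: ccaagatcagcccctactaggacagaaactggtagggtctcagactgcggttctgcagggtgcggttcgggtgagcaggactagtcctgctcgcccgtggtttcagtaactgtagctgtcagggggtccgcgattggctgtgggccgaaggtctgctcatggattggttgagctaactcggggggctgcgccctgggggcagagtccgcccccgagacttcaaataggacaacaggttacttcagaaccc
Cgnl1: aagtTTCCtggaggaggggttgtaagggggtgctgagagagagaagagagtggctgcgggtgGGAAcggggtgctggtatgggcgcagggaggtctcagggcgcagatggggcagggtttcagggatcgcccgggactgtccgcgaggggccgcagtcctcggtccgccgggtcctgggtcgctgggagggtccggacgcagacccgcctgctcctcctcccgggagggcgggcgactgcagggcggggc
The Clec14a window held 6 matches to GGAA, that of Eltd1 4, that of Cgnl1 2 and that of Cldn5 0. At least 1 match was present in 14 of the 16 members' windows and in 93.4% of all 32851 promoter windows of this length, so the motif is common everywhere. ACGTG, the core of hypoxia response elements, was present for 3 of 16 members and in 16.6% of all windows. CATCTG, an E-box form bound by HAND factors, was present for 4 of 16 (14.4% of all), and ATTGT, a SOX core, for 3 of 16 (27.7% of all). Both strands were searched, none of the 4 motifs contains another (matches to different motifs may share bases), and where a gene had several starts the first one listed was used. A match is a string of letters in this window and no measured binding.

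Endothelial genes such as Esam, Clec14a, Vwf and Sox7 were higher in the Hand2 null canals, and no member was called lower. Of the 34 members, 12 rose and none fell by the edgeR test (35.3% higher, against 4.11% of all tested genes higher). The members and the other gene lists were chosen with earlier results of these data known. The shares of called genes given for them therefore describe the lists and do not test them. None of the 6 members with a negative log2 fold change had an unadjusted edgeR p under 0.05. DESeq2 called 14 higher and 0 lower, against 7.1% and 5.68% of all genes. A log2 fold change above 0 was found for 28 of the 34 (52.3% of all tested genes). The median log2 fold change, null over wild type, was 0.47, against 0.02 over all tested genes. The null libraries all lay above the wild-type libraries for 18 of the 34 (11.6% of all tested genes) and all below them for none. RNA from whole canals cannot tell more endothelial cells from more RNA per endothelial cell.

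The summed level of all 34 members was 1403 to 1425 CPM in the null libraries and 929 to 1092 CPM in wild type, without overlap. The 20 junction and surface genes summed to 1005 to 1065 CPM in null and 679 to 816 CPM in wild type. The 8 transcription factor genes summed to 267 to 339 CPM in null and 185 to 218 CPM in wild type, again without overlap. The 6 endocardial genes summed to 72.0 to 93.4 CPM in null and 64.8 to 81.0 CPM in wild type, and here the groups overlapped.

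**Figure D1:**
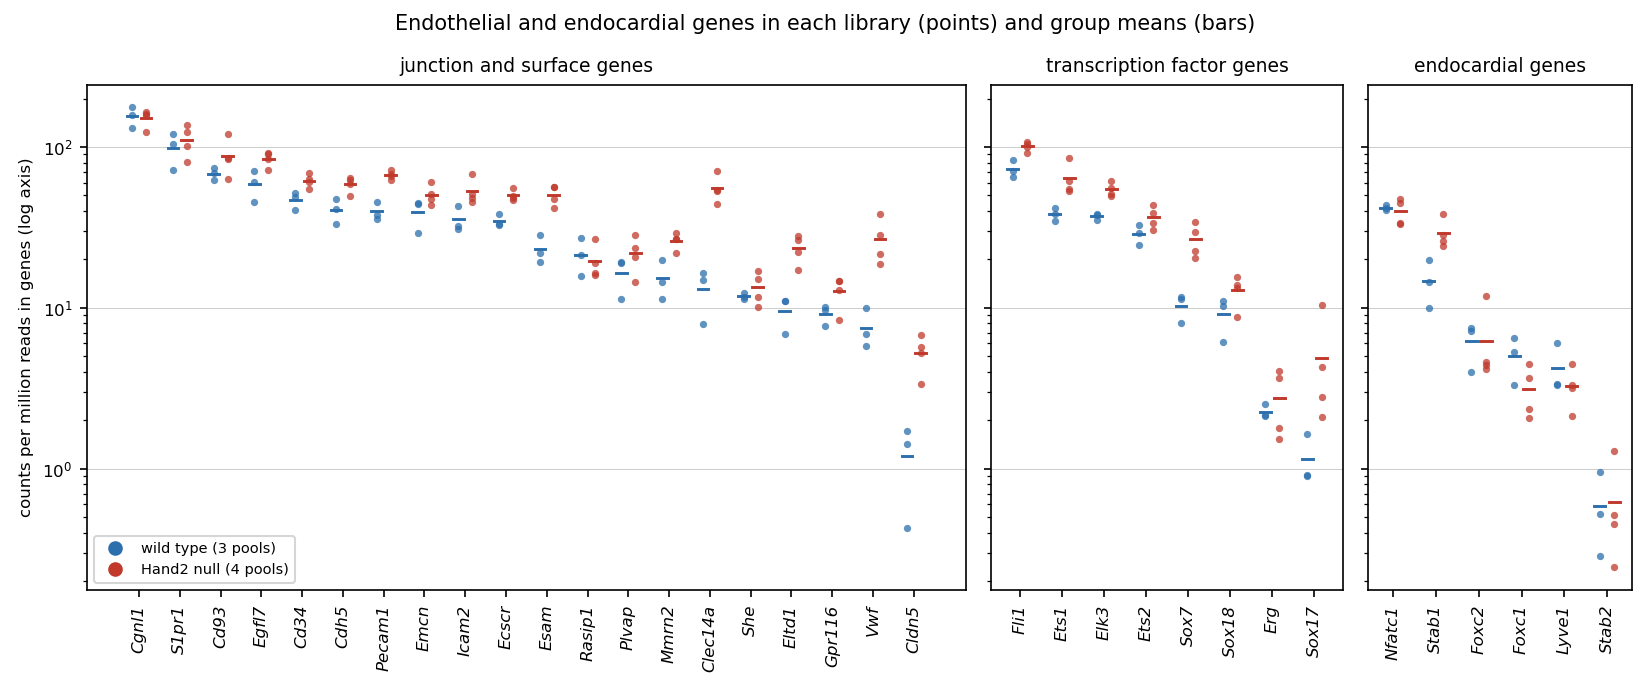
CPM of each of the 34 genes (log axis) in the 3 wild-type (blue) and 4 null (red) libraries, with points for libraries and short bars for group means. Null points lie above the blue ones for genes such as Esam, Clec14a, Vwf and Sox7, while the points of Cgnl1, S1pr1, Nfatc1 and Lyve1 overlap.

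Of the 12 calls, 6 (Esam, Cldn5, Vwf, Eltd1, Clec14a and Sox7) held with any single library left out. Against 12 with all libraries, 6 members were called higher when null replicate 1 was omitted (2.02% of all genes in that fit). With wild-type replicate 2, 3 or 4 omitted, 7 were called higher each time (1.45%, 1.68% and 3.55% of all genes). No member was called lower in any of these fits. Leaving out both null replicate 2 and wild-type replicate 4 also gave 7 (2.06% of all genes higher). Wild-type replicate 4 had the lowest value of all 7 libraries for 18 of the 34 members, the highest share of haemoglobin reads (2.18%, against 0.554% to 1.43% in the others) and the highest summed level of cushion mesenchyme markers (332 CPM, against 175 and 217 CPM in wild-type replicates 3 and 2). Without it the members' median log2 fold change was 0.36.

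Among the 20 junction and surface genes 7 rose (35%, against 4.11% of all tested genes higher), with a median log2 fold change of 0.50. Pecam1, a junctional adhesion molecule of all endothelial cells, was at 72.4, 65.6, 62.1 and 67.7 CPM in null replicates 1 to 4 and at 37.9, 35.6 and 45.7 CPM in wild-type replicates 2 to 4. Every null library was above every wild-type library, and the log2 fold change was 0.74 (SE 0.142, edgeR adjusted p = 0.0107), or 1.67-fold. Its call was lost without null replicate 1 (log2 fold change 0.67, adjusted p = 0.0509), wild-type replicate 2 (0.70, 0.0873) or wild-type replicate 3 (0.68, 0.0789). Cdh5, which encodes VE-cadherin, was at 58.8, 49.4, 63.9 and 62.0 CPM in null and at 41.4, 47.2 and 33.0 CPM in wild type. The groups of Cdh5 did not overlap either, but the difference missed the threshold (0.51, SE 0.171, adjusted p = 0.0940).

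Esam, an immunoglobulin-domain adhesion molecule of endothelial tight junctions, rose 2.16-fold. It was at 56.5, 47.4, 41.6 and 56.0 CPM in the null libraries and at 28.2, 21.8 and 19.2 CPM in wild type. All null libraries were far above the wild-type range, and the difference was 1.11 on the log2 scale (SE 0.179, edgeR adjusted p = 0.00396). Cldn5, the main claudin of endothelial tight junctions, was scarce but showed the largest ratio among the members. Its values were 5.20, 3.38, 5.72 and 6.73 CPM in null and 1.72, 1.42 and 0.430 CPM in wild type, the last from 12 reads. The groups were separate, and the log2 fold change was 2.11 (SE 0.423, adjusted p = 0.0134), with a range of 1.72 to 2.48 over the fits that left out 1 library.

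Other junction-linked genes were not called. Cgnl1, which encodes a paracingulin of the junctional plaque, was at 124, 159, 160 and 164 CPM in null and at 157, 176 and 132 CPM in wild type. These ranges overlapped almost fully (log2 fold change -0.05, 95% interval -0.37 to 0.28, edgeR adjusted p = 0.877). Rasip1, an effector of RAP1 and RAS signalling needed for vessel lumens, was at 16.1, 19.1, 26.9 and 16.5 CPM in null and at 21.4, 27.1 and 15.7 CPM in wild type. Its groups overlapped too (-0.14, interval -0.65 to 0.37, adjusted p = 0.753), and 20.4% of its exon length in GENCODE is also covered by exons of Izumo1, so that reads there are uncertain.

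Of the surface glycoproteins, Clec14a, a C-type lectin of endothelial cells, changed most. It was at 52.9, 70.7, 44.0 and 54.3 CPM in the null libraries and at 14.9, 7.92 and 16.4 CPM in wild type. The lowest null library was far above the highest wild-type library, and its difference of 2.06 on the log2 scale (SE 0.238, edgeR adjusted p = 0.000527) had the smallest p among the members. Eltd1, an adhesion G-protein-coupled receptor of vessels, was at 26.5, 27.8, 17.3 and 22.1 CPM in null and at 11, 6.85 and 11 CPM in wild type. Its groups were separate as well (1.26, SE 0.216, adjusted p = 0.00560). Gpr116, the other adhesion receptor on the list, was at 8.38 to 14.7 CPM in null and 7.70 to 10.1 CPM in wild type and was not called (0.44, adjusted p = 0.234).

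Vwf, the clotting glycoprotein stored by endothelial cells and also made by megakaryocytes, was at 18.8, 38.2, 28.2 and 21.5 CPM in null and at 5.80, 9.93 and 6.84 CPM in wild type. All null libraries were above the wild-type range (log2 fold change 1.80, SE 0.265, edgeR adjusted p = 0.00236). Null replicate 2, the highest for Vwf, also had the highest summed level of 8 megakaryocyte and platelet markers. That sum was 240 CPM there, 20.8 to 93.9 CPM in the other null libraries and 20.4 to 35.1 CPM in wild type, and none of the 7 tested markers was called. The most abundant, Pf4, was at 166 CPM in null replicate 2 and at 11.4 CPM in null replicate 1, and Itga2b at 24.2 and 4.20 CPM. Without null replicate 2 the log2 fold change of Vwf was 1.61 (adjusted p = 0.00736). The part of megakaryocyte RNA in the values of Vwf was not tested.

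Ecscr, a small surface protein of endothelial cells, rose by less, from 34.8 ± 2.96 CPM (SD, n = 3) to 50.3 ± 3.78 CPM (SD, n = 4). The groups did not overlap (log2 fold change 0.51, SE 0.132, edgeR adjusted p = 0.0423). With no filter on low counts its adjusted p was 0.0532. Among the fits with 1 library left out, the call held only without null replicate 3 or 4, with adjusted p-values of 0.109 and 0.0946 without null replicates 1 and 2 and of 0.122, 0.185 and 0.109 without wild-type replicates 2, 3 and 4.

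The remaining 9 surface, secreted and adaptor genes were not called. Mmrn2, an endothelial matrix protein that binds Clec14a and Cd93, came nearest, at 26.9, 22.0, 26.7 and 29.1 CPM in null and 14.5, 19.8 and 11.4 CPM in wild type. The groups were separate, at 0.76 on the log2 scale (SE 0.207, edgeR adjusted p = 0.0501), and the gene passed without null replicate 3 (adjusted p = 0.0469) or wild-type replicate 3 (0.0321). Icam2, an adhesion molecule for leukocytes, had 0.57 (adjusted p = 0.0882), Egfl7, a secreted factor of vessel tubes, 0.49 (0.0965), and Cd34, a sialomucin of endothelial and blood progenitor cells, 0.37 (0.122). Their groups did not overlap either. With Cdh5 and Fli1, these 4 make up the 6 of 22 members not called in which all null libraries lay above wild type. Over all tested genes, called or not, that share was 11.6%.

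The sialomucin Emcn (log2 fold change 0.34), the diaphragm protein Plvap (0.39), the lectin-like receptor Cd93 (0.36), the adaptor She (0.19) and the sphingosine-1-phosphate receptor S1pr1 (0.13) overlapped between groups, with edgeR adjusted p-values from 0.298 to 0.722. The 95% intervals of these 5 differences all lay between -0.29 and 0.94, and those of Emcn, Plvap and Cd93 include the value of Pecam1 (0.74). S1pr1 varied widely within both groups, at 101, 136, 80.3 and 124 CPM in null and 121, 71.6 and 105 CPM in wild type.

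Among the transcription factors, all 8 log2 fold changes were above 0, and 4 passed the test (50% of the 8, against 4.11% of all tested genes higher). Sox7, a SOXF factor of early endothelium, was at 29.4, 22.6, 34 and 20.4 CPM in null and at 11.6, 11.3 and 7.99 CPM in wild type. The groups were well separated (log2 fold change 1.35, SE 0.231, edgeR adjusted p = 0.00560). Sox17, the SOXF factor linked to arterial endothelium, was at 4.28, 2.80, 10.4 and 2.08 CPM in null and at 0.914, 1.63 and 0.896 CPM in wild type. Null replicate 3 was far above the other null libraries, and the difference of 2.09 (SE 0.548, adjusted p = 0.0441) became 1.39 (adjusted p = 0.0453) without it. The Sox17 call was lost without null replicate 1 (2.14, 0.0871) or wild-type replicate 2 (1.94, 0.186), 3 (2.44, 0.0850) or 4 (1.94, 0.0979), and 16.8% of its exon length overlaps the antisense gene Gm37587 in GENCODE.

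Sox18, the third SOXF factor, was not called. It was at 13.2, 8.71, 15.6 and 13.9 CPM in null and 10.3, 11 and 6.09 CPM in wild type, with overlap between the groups (log2 fold change 0.48, SE 0.262, edgeR adjusted p = 0.284). Whether Sox7, Sox17 and Sox18 differ from each other in their response was not tested.

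Of the 5 ETS factors, Ets1 and Elk3 rose. Ets1, a factor of endothelial and other mesodermal cells, was at 85.2, 54.9, 61.7 and 53.2 CPM in null and at 38.2, 41.6 and 34.6 CPM in wild type. All null libraries were above wild type (log2 fold change 0.73, SE 0.194, edgeR adjusted p = 0.0470), with null replicate 1 the highest. Without that library the difference was 0.53 (adjusted p = 0.111), and the call was also lost without wild-type replicate 2 (0.185), 3 (0.114) or 4 (0.119), and under RLE scaling (0.71, 0.0513). Elk3, an ETS factor of the ternary complex family, was at 55.4, 51.3, 49.8 and 61.7 CPM in null and 38.2, 35.0 and 37.8 CPM in wild type. It had tight and separate groups (0.54, SE 0.137, adjusted p = 0.0389), yet the call ended on omission of null replicate 1 (0.111), null replicate 4 (0.0675) or any of the wild-type replicates 2 to 4 (0.162, 0.175 and 0.0879).

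Fli1, the most abundant ETS factor here per unit of exon length, was at 108, 91.4, 104 and 99.6 CPM in null and 65.0, 82.9 and 70.7 CPM in wild type. Although the groups did not overlap, the difference of 0.45 on the log2 scale missed the threshold (SE 0.148, edgeR adjusted p = 0.0874). Ets2 (0.34, adjusted p = 0.266) and Erg (0.28, adjusted p = 0.689) overlapped between groups. Erg, which keeps mature endothelium in its state, was scarce at 1.53 to 4.02 CPM in null and 2.12 to 2.51 CPM in wild type.

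Of the 6 endocardial genes 1 rose (16.7%, against 4.11% of all tested genes higher), and their median log2 fold change was -0.05. Nfatc1, the calcium-dependent factor that marks endocardium, was at 33.1, 45.0, 47.6 and 33.5 CPM in null and at 41.5, 40.5 and 43.8 CPM in wild type. The wild-type values sat inside the null range, and the difference was -0.09 (95% interval -0.45 to 0.26, edgeR adjusted p = 0.766). An increase as large as that of Pecam1 (0.74) lies outside this interval. Stab1, a scavenger receptor of sinusoidal endothelium and macrophages, was the member that rose, at 28.5, 38.1, 24.2 and 26.2 CPM in null against 19.8, 14.5 and 10 CPM in wild type. Its groups were separate (0.96, SE 0.227, adjusted p = 0.0291), and the call ended on omission of null replicate 1 (0.0763) or 2 (0.0821), and likewise of wild-type replicate 3 (0.109) or 4 (0.0670).

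Stab2, the related hyaluronan scavenger receptor, was nearly absent, with 7 to 50 reads per library (0.244 to 1.28 CPM), and a difference was not detectable at this depth (log2 fold change 0.05, 95% interval -1.25 to 1.35). Lyve1, a hyaluronan receptor of lymphatic and some endocardial endothelium, was at 3.16, 3.32, 2.13 and 4.44 CPM in null and 6, 3.32 and 3.37 CPM in wild type, with overlap (-0.40, edgeR adjusted p = 0.456). The forkhead gene Foxc1, active in mesenchyme as well as endothelium, was at 3.64, 2.07, 4.5 and 2.36 CPM in null and 5.31, 6.47 and 3.33 CPM in wild type. Its groups overlapped, and its log2 fold change of -0.69 was the lowest among the members (95% interval -1.43 to 0.04, adjusted p = 0.230). Foxc2 was at 4.58, 4.38, 11.8 and 4.16 CPM in null and 7.45, 7.16 and 3.98 CPM in wild type, and null replicate 3 alone set the null mean. The difference was -0.01 with all libraries and -0.54 (adjusted p = 0.204) without null replicate 3.

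Markers of other cells that share some of these genes were measured beside them. For macrophages and leukocytes, which share Stab1 and Lyve1, 9 markers summed to 10.6 to 19.5 CPM in null and 15.3 to 16.9 CPM in wild type. Of the 6 tested, 1 rose (Mrc1) and 1 fell (Lyz2), against 4.11% and 2.13% of all tested genes. The defining marker Ptprc stayed at or under 0.426 CPM in all libraries. Aif1 was at 0 to 0.335 CPM in null and 0.0446 to 0.277 CPM in wild type. Tyrobp was at 0 to 1.07 CPM in null and 0.0892 to 0.519 CPM in wild type. Aif1 and Tyrobp were both highest in null replicate 2. For lymphatic endothelium, 5 markers summed to 73.0 to 93.3 CPM in null and 44.4 to 62.4 CPM in wild type, mostly Pdpn and Prox1, with none of 4 tested called and Ccl21a at 0 in all libraries. Of 10 cushion mesenchyme markers, 5 fell and none rose (2.13% of all tested genes lower), and their sum was 118 to 157 CPM in null and 175 to 332 CPM in wild type, led by Sox9 and Pdgfra. Those that fell were Twist1, Snai1, Sox9, Msx1 and Postn. The part of these cells in the values of Stab1, Lyve1, Foxc1 and Foxc2 was not tested.

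**Figure D2:**
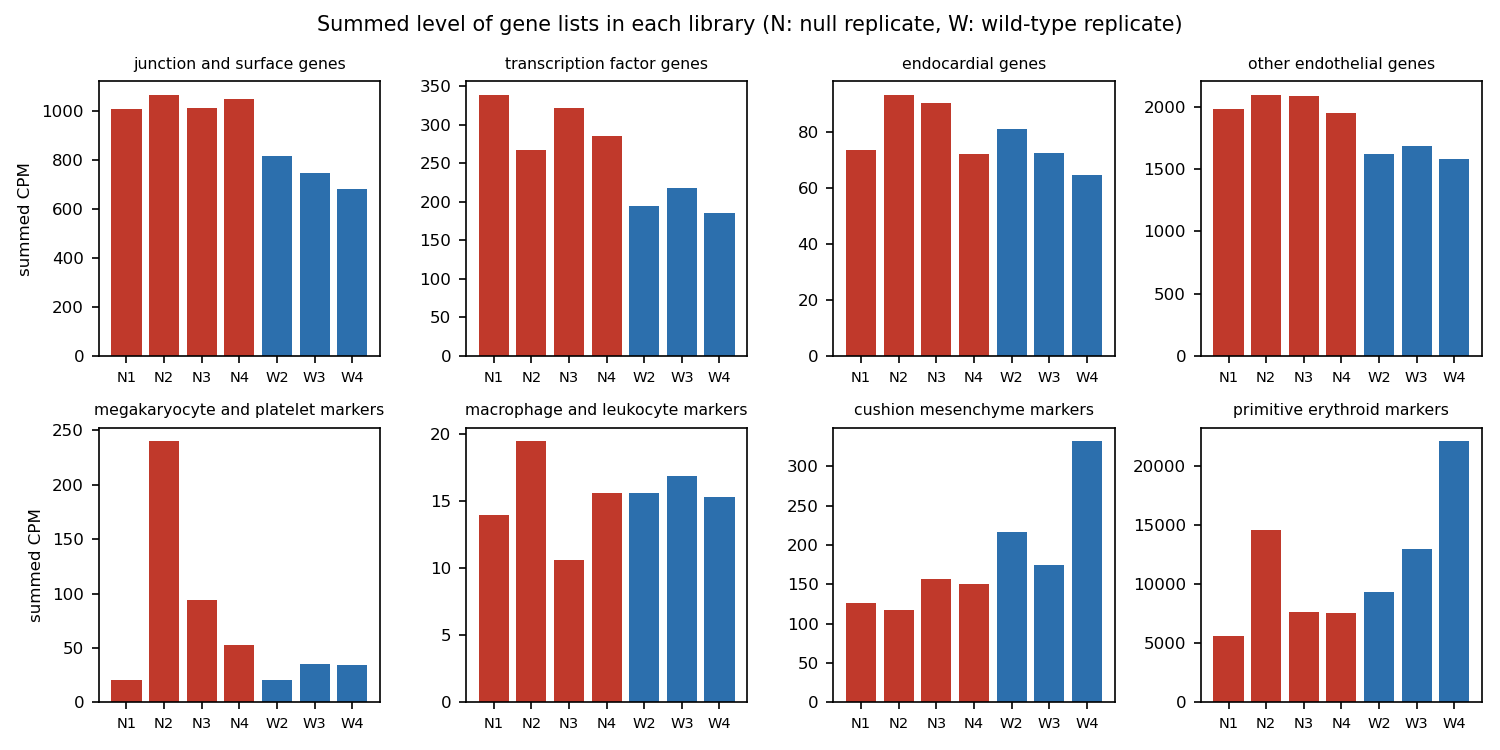
Summed CPM (axis from 0) of 8 gene lists in each library, null replicates N1 to N4 in red and wild-type replicates W2 to W4 in blue. The junction and surface sums of the null libraries all exceed 816 CPM, the highest in wild type, the endocardial sums overlap, and the megakaryocyte sum of N2 reaches 240 CPM.

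The remaining lists bear on the purity of the dissection. For the counts below, the shares over all tested genes were 4.11% higher and 2.13% lower. Of 10 erythroid markers, 8 were tested and 1 fell (Klf1). Their sum, mostly Hbb-y and Hba-x, was 5618 CPM in null replicate 1 and 22083 CPM in wild-type replicate 4, and Hba-a1 and Hba-a2 were listed at 0 in all libraries. Of 10 heart muscle markers 1 rose (Myh7), with sums of 33839 to 40134 CPM in null and 32786 to 37456 CPM in wild type. Of 6 tested proepicardial and mesothelial markers (led by Wt1 and Tbx18) none was called, with sums of 63.6 to 80.5 CPM in null and 48.3 to 68.6 CPM in wild type. Of 6 tested foregut and epithelial markers, Krt8 and Krt18 rose, with sums of 284 to 362 CPM in null and 163 to 188 CPM in wild type. These sums were mostly Krt8 (mean 161 CPM in null, 98.9 CPM in wild type) and Krt18 (168 and 75.4 CPM). The defining endoderm gene Foxa2 stayed at or under 0.304 CPM. Shh was at 0 in null replicate 1 and all wild-type libraries and at 0.0913, 0.0698 and 0.514 CPM in null replicates 2 to 4, and null replicate 4 was also the highest library for Epcam (4.88 CPM) and Cdh1 (2.57 CPM). Of 4 tested neural markers, 1 fell (Tubb3), with sums of 6.24 to 8.17 CPM in null and 12.7 to 43.1 CPM in wild type, and Pax6 was at 0.670 to 3.03 CPM in null and 0.0692 to 0.717 CPM in wild type.

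The RNA came from whole canals, so the reads of a member may include those of other cells. To relate the members to pan-endothelial genes, each was also set against the geometric mean of Cdh5 and Pecam1 in its own library. This reference was at 56.9 to 65.2 CPM in null and 38.9 to 41.0 CPM in wild type. A ratio to it removes a change in the amount of endothelial RNA as far as these 2 genes track it, and it shows unequal change without saying which of the genes moved. Refitted with this scaling over all genes, the other 32 members had a median log2 difference of -0.17, with 7 called higher (1.54% of all genes tested in that fit were higher) and 5 lower. The ratio of all null libraries lay above wild type for 4 of the 32 (1.63% of all genes) and below for 5 (51.1% of all genes). Since the reference itself was higher in null, 49.5% of all genes tested in that fit were lower, so a lower call places a member with the bulk of canal genes and not with Cdh5 and Pecam1.

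The 5 members lower relative to Cdh5 and Pecam1 were Nfatc1, Foxc1, Lyve1, Cgnl1 and Rasip1, 3 of them endocardial genes. Over all genes tested in that fit, 49.5% were lower and 51.1% had all null ratios below wild type. The 3 of 6 endocardial genes are near that share, so the count shows nothing particular to them. Nfatc1 reads per read of the reference were 0.507, 0.790, 0.756 and 0.518 in null replicates 1 to 4 and 1.05, 0.989 and 1.13 in wild type. Every null library was below every wild-type library (relative log2 difference -0.71, SE 0.190, edgeR adjusted p = 0.00873). Foxc1 ratios were 0.0558, 0.0364, 0.0715 and 0.0365 in null and 0.134, 0.158 and 0.0858 in wild type, again without overlap (-1.33, SE 0.318, adjusted p = 0.00493). Cgnl1 went from 3.88 ± 0.456 (SD, n = 3) to 2.44 ± 0.384 (SD, n = 4) reads per reference read (-0.67, edgeR adjusted p = 0.00514), also without overlap. These 3 were called with any single library left out.

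Lyve1 had a relative log2 difference of -1.03 (edgeR adjusted p = 0.0189), without overlap; leaving out wild-type replicate 2 removed the call (-0.68, 0.146). Rasip1 had -0.76 (adjusted p = 0.0175), with wild-type replicate 4 inside the null range, and lost its call without null replicate 1 (0.0534) or wild-type replicate 2 (0.0568) or 3 (0.0850). Against Cdh5 alone, Foxc1 was the only one of the 5 still called, and Nfatc1 was at -0.62 (adjusted p = 0.0710), Lyve1 at -0.91 (0.0637), Cgnl1 at -0.55 (0.0637) and Rasip1 at -0.63 (0.0629). Against the geometric mean of Kdr, Tek and Tie1, endothelial receptor genes outside the list, all 5 were called lower, and so was S1pr1 (-0.58, edgeR adjusted p = 0.0280). Kdr (log2 fold change 0.94) and Tie1 (1.1) were themselves higher in null, while Tek hardly differed (0.08). A lower call here places a member below this reference only. The share of all genes called lower in this fit and the Cdh5 fit is not given. In the fit against Cdh5 and Pecam1 it was 49.5%. The lower calls against these added references therefore cannot be read as particular to these members. These added references were chosen after the data had been seen.

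**Figure D3:**
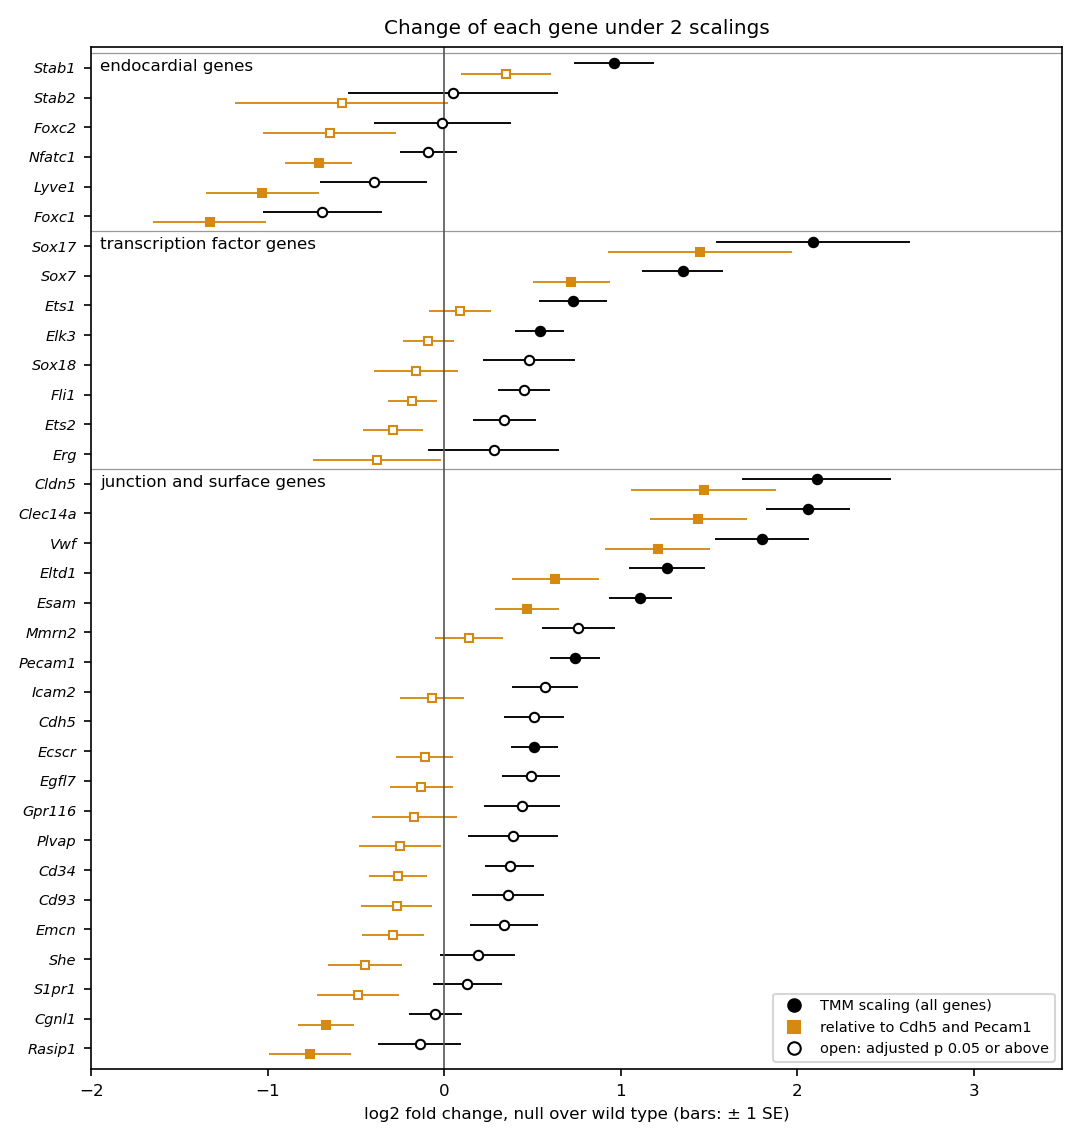
Log2 fold change of each member, null over wild type, with bars of 1 SE, under the scaling over all genes (black circles) and relative to Cdh5 and Pecam1 (orange squares); filled symbols mark an adjusted p under 0.05. Cldn5, Clec14a, Vwf and Sox7 stay above 0 under both scalings, while Nfatc1, Foxc1 and Lyve1 lie at or left of 0 under both.

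The 7 members higher relative to Cdh5 and Pecam1 were Clec14a, Cldn5, Vwf, Sox7, Sox17, Eltd1 and Esam. Clec14a ratios were 0.811, 1.24, 0.699 and 0.839 in null and 0.376, 0.193 and 0.423 in wild type, without overlap (relative log2 difference 1.44, SE 0.277, edgeR adjusted p = 0.00150). Cldn5 (1.47, adjusted p = 0.0112) and Vwf (1.21, adjusted p = 0.00580) were also separate between groups, and these 3 were called with any single library left out. Sox7 (0.72, adjusted p = 0.0173) lost its call without wild-type replicate 4 (0.58, 0.0790).

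The calls of the other 3 were less stable. Sox17 was at 1.45 (edgeR adjusted p = 0.0359) and, without null replicate 3, at 0.78 (0.132), and was also lost without null replicate 1 (0.0506) or wild-type replicate 2 (0.119) or 4 (0.107). Esam was at 0.47 (adjusted p = 0.0445) and held only without null replicate 3 or wild-type replicate 2, with adjusted p-values of 0.0603 to 0.173 without each of the others. Eltd1 was at 0.63 (adjusted p = 0.0482) and held only without null replicate 3 (0.0202), with 0.0521 to 0.179 otherwise. Relative to the reference, 4 members were higher once null replicate 1 was left out and 3 once wild-type replicate 4 was. Leaving out wild-type replicate 2 left 3 lower members. The shares of all genes called in these fits are not given, so these counts have no background beside them.

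Of the members called under the scaling over all genes, Ets1, Elk3, Ecscr and Stab1 were not called against the reference. Stab1, the endocardial gene that rose, had a relative log2 difference of 0.35 (edgeR adjusted p = 0.261). Ets1 (0.09), Elk3 (-0.09) and Ecscr (-0.11), and among the others Icam2 (-0.07) and Egfl7 (-0.13), had relative log2 differences near 0, with SE of 0.146 to 0.181, so that Ecscr and Elk3 changed sign against the scaling over all genes. Foxc2 was at -0.65 (edgeR adjusted p = 0.164) and, without null replicate 3, at -1.14 (0.00603).

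**Figure D4:**
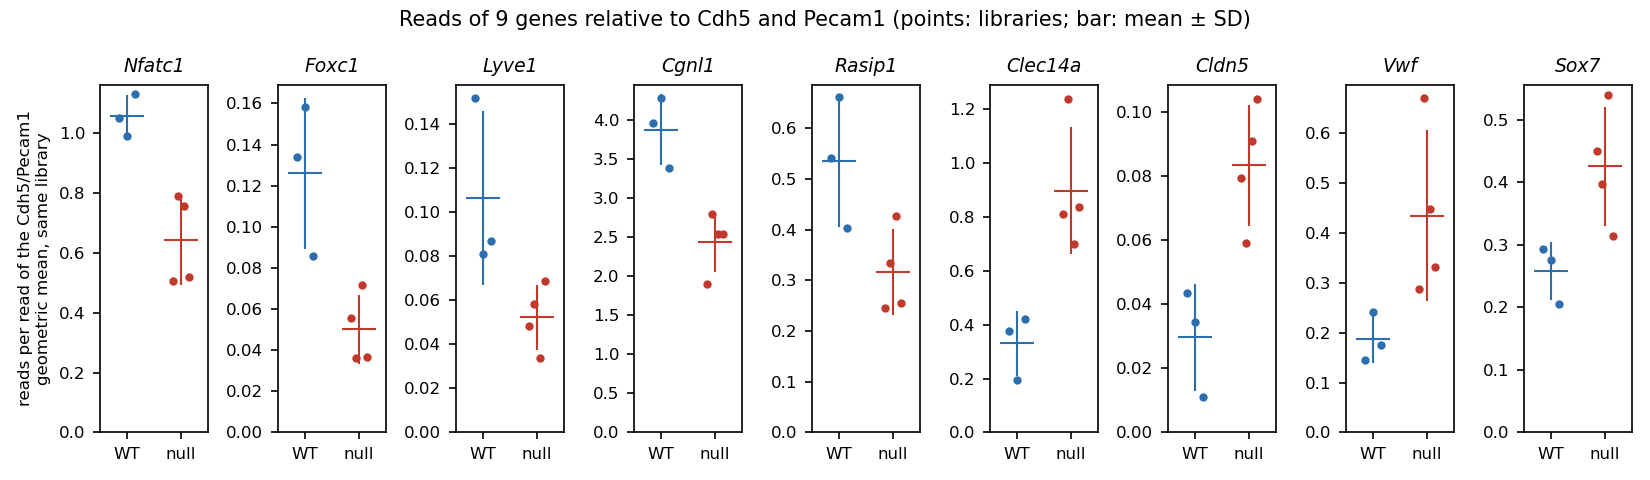
Reads of 9 members per read of the Cdh5 and Pecam1 geometric mean in the same library (each axis from 0), with points for libraries and mean ± SD for the 3 wild-type (blue) and 4 null (red) libraries. Nfatc1 is near 1 in wild type and between 0.507 and 0.790 in null, and Clec14a moves the other way, from at most 0.423 to at least 0.699.

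Levels were compared between members only per length, as RPKM (CPM per kilobase of union exon length). In wild type S1pr1 was highest at 32.6 ± 8.24 RPKM (SD, n = 3), followed by Fli1 (20.9 ± 2.63), Ecscr (19.9 ± 1.69), Cgnl1 (19.7 ± 2.82) and Icam2 (18.6 ± 3.58), and these last 4 differed by less than their spread. Lowest were Stab2 (0.0671 RPKM), Sox17 (0.240), Vwf (0.468) and Erg (0.651). In null S1pr1 (36.3 ± 8.15 RPKM, SD, n = 4) and Fli1 (28.9 ± 2.09) still led, while Clec14a moved from rank 22 (2.86 ± 0.993 RPKM) to rank 10 (12.1 ± 2.44 RPKM) of the 34. Rasip1 went from rank 13 to rank 21, although its own level was not called different (6.68 ± 1.79 RPKM in wild type, 6.14 ± 1.57 RPKM in null).

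Beyond the members, 47 other genes of endothelial signalling and regulation had a row, and 14 rose and 1 fell (29.8% and 2.13% of them, against 4.11% and 2.13% of all tested genes). Their median log2 fold change was 0.22. Of the 47, 30 had a log2 fold change above 0 (52.3% of all tested genes) and 17 below 0. All null libraries lay above wild type for 18 of the 47 (11.6% of all tested genes) and below for 5 (10.3%). The 6 with the largest differences were Acvrl1, a receptor for BMP9 and BMP10 (1.58 ± 0.631 CPM in wild type, 9.73 ± 2.26 CPM in null, log2 fold change 2.58), Mmrn1, a protein of platelets and endothelium (2.42), the apelin receptor gene Aplnr (2.35), Myct1 (1.99), the guidance receptor gene Robo4 (1.74) and Ushbp1 (1.66). Mmrn1, at 2.38, 13.3, 4.53 and 9.76 CPM in null and 0.936 to 1.66 CPM in wild type, was highest in null replicate 2, the library richest in megakaryocyte markers. Klf2, a factor induced by shear stress, fell (-1.14, edgeR adjusted p = 0.0205), named after its value was seen.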

How the data were processed

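Total RNA from pooled atrioventricular canals was depleted of ribosomal RNA, amplified with a low-input kit and sequenced as short single reads without strand information, per the labels' protocols. The authors deposited raw read counts per gene for each library. The genome build was mm9, the aligner TopHat2 2.0.13, and HTSeq and SAMtools are also listed, per the submitters' processing notes. For the gene annotation and the settings of the counting, the sources used here give nothing. The 5 summary rows of each count file (reads in no gene 7.31% to 14.2%, not uniquely placed 9.08% to 13.8%, ambiguous 1.46% to 1.69%) were left out. Reads of overlapping genes on opposite strands cannot be told apart. All per-sample columns were used.

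Counts were fitted with edgeR 4.0.16 in R 4.3.3 (TMM scaling, filterByExpr with a minimum count of 10, quasi-likelihood test of genotype with 5 residual degrees of freedom), and p-values were adjusted by Benjamini-Hochberg over all tested genes. The threshold was an adjusted p of 0.05. Intervals are at the 95% level. The code was tested on simulated data. CPM refer to 1000000 reads in genes, and RPKM use union exon lengths of GENCODE M21 (GRCm38), another build than the counts. DESeq2 1.42.0, other scalings and filters, a replicate block, omission of libraries and scaling to Cdh5 and Pecam1 were the alternatives. Nothing in the labels says whether pools share litters, so p-values measure the spread between pools. Reads were amplified without molecular identifiers, so the floor of 3 reads covers counting error only.

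The members and all gene lists were chosen with earlier results of these data known. All 34 members were named, of the other endothelial genes the 6 called with the largest fold change, and of each marker list the 2 most abundant. Other called or defining markers were named after their values were seen. The labels do not say whether equal replicate numbers pair libraries, and the numbers were not taken to pair them. Same-numbered libraries had correlations of their deviations from the group means of -0.073, 0.257 and 0.166 (numbers 2, 3 and 4). Those of unlike numbers were -0.234 to 0.137. With 3 shared numbers these values cannot settle whether libraries are paired.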

Additional observations from a re-analysis of the deposited data

Results flagged for a closer look

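In the 4 null libraries, 2 members had a single value far from the rest by Dixon's criterion (critical value 0.829), which chance meets in about 1 in 20 groups. Cgnl1 was at 124 CPM in null replicate 1 and at 159 to 164 CPM in the other null libraries. Foxc2 was at 11.8 CPM in null replicate 3 and at 4.16 to 4.58 CPM in the other null libraries. Groups of 3 libraries were not examined in this way.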

How the results depend on the processing

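The number of genes called at an adjusted p under 0.05 was 892, against 1826 with DESeq2, 1339 with a replicate block, 421 with both null replicate 2 and wild-type replicate 4 left out, 7298 when scaled to Cdh5 and Pecam1, and 256 to 1598 with 1 library left out (lowest without wild-type replicate 2, highest without null replicate 3). Of the 34 members, 12 were called higher (4.11% of all tested genes). With 1 library left out, 6 to 13 were (1.45% to 6.65% of all genes). With both null replicate 2 and wild-type replicate 4 left out, 7 were (2.06%), and 7 when scaled to Cdh5 and Pecam1 (1.54%). Other scalings and filters and DESeq2 gave 11 to 14 (3.24% to 7.1%). No member was called lower except 5 under the Cdh5 and Pecam1 scaling, where 49.5% of all genes were. Ecscr (-0.11) and Elk3 (-0.09) changed sign under that scaling, where neither was called. It moved the median of all genes to -0.604, against 0.022 for TMM, 0.006 for RLE and 0.003 for upper-quartile scaling. Relative to Cdh5 and Pecam1, the 7 higher members became 3 to 6 with 1 library left out and 4 against Kdr, Tek and Tie1, and the 5 lower members became 3 to 7 with 1 library left out and 1 against Cdh5 alone; these settings were chosen after seeing the data. The cause of these changes was not tested. For the fits against a reference with 1 library left out or with another reference, the share of all genes called is not given. In the replicate block over the 3 shared numbers, 12 members were called higher (5.42% of all genes in that fit), 11 of them among the 12. Mmrn2 was gained (0.75, edgeR adjusted p = 0.0399) and Elk3 lost (0.50, edgeR adjusted p = 0.0514). Wild-type replicates 3 and 4 correlated best with the null library of their own number (0.257 and 0.166). Wild-type replicate 2 correlated best with null replicate 4 (0.081), not with its own number. Depth limited Stab2, with 7 to 50 reads a library, and Cldn5 in wild-type replicate 4, with 12 reads.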
